A study of Homo sapiens with 12 samples.

Results

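The genes followed here were 10 of the 56593 gene symbols in the expression table. They were chosen by symbol, as genes that encode surface antigens by which hemogenic endothelium and blood progenitors are recognized: CD34, SPN (CD43), PTPRC (CD45), KIT (CD117), CD44, THY1 (CD90), NT5E (CD73), CD38, ACE (CD143) and PROCR (CD201). Each of the 10 stood on 1 line of the table. Transcripts were sequenced from the established human embryonic stem cell line H1 and from 3 populations sorted from H1 cultures that differentiated toward blood. Undifferentiated H1 cells were the start. APLNR+ mesoderm cells were collected at day 2, under activin A and BMP4, and CD31+CD34+ hemogenic endothelial progenitors (HEPs) at day 5 and CD43+ hematopoietic progenitor cells (HPCs) at day 8, under VEGF and bFGF. Each population had 3 libraries, 12 in all, from 1 unmodified line, and the labels do not say whether the 3 libraries came from separate cultures, so the p values measure the spread between these libraries.

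In the embryo, the first blood cells with progenitor activity bud from a specialized endothelium, and its cells exchange surface proteins as they leave the vessel wall. CD34 and CD43 are sialomucins, rod-like proteins covered with sugar chains. CD34 is shared by endothelium and progenitors, while CD43 marks the first committed blood cells in human pluripotent cell cultures. CD45, a receptor phosphatase of nearly all nucleated blood cells, appears later in such cultures. CD73, CD38 and CD143 are enzymes that face the outside of the cell, and CD90 and CD73 are also used to recognize mesenchymal stromal cells.

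FPKM, fragments scaled to transcript length and library total, are used throughout, so levels of different genes can be set side by side within a library. Summed FPKM ran from 568036 to 1576040 per library, and 12313 to 13084 entries stood at 1 FPKM or more in a library. Read totals cannot be recovered from such values. The spacing of the lowest values placed the depth of the libraries between 0.554 and 1.27 times that of CD43+ replicate 3, with replicate 1 the shallowest library of every population, so that the lowest values are least precise there. An exact 0 can be a failed estimate in this table, since EEF1A1, an elongation factor of protein synthesis needed by all cells, had a 0 in 6 libraries. A gene entered the test with 3 or more libraries at 1 FPKM, as 14840 genes did. It was called raised or lowered if its limma adjusted p was below 0.05 and its log2(FPKM + 1) value changed by 2-fold or more. The added 1 makes changes of low genes look smaller than they are.

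Of the 10 antigens, 8 passed that filter and PTPRC and CD38 did not. KIT, CD44, THY1 and PROCR reached 1 FPKM in all 12 libraries. CD34 did so in 7 libraries. SPN and ACE reached it in 6 libraries, those of HEPs and HPCs, and NT5E in 3, those of HPCs. A gene that enters only through the population where it is high had to differ, so the counts below describe the antigens and do not stand for them as a class. Marker lists were summed for pluripotent and endothelial cells, and no mesoderm list was run for APLNR+ cells. The 8 pluripotency genes summed to between 2537 and 2640 FPKM in H1 and to between 173.6 and 201.9 FPKM in HPCs, where LIN28A alone had 118.5 FPKM. The 16 endothelial surface genes summed to between 805.5 and 1008 FPKM in HEPs and to between 551.5 and 673.1 FPKM in HPCs, against at most 43.2 FPKM in H1.

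**Figure D1:**
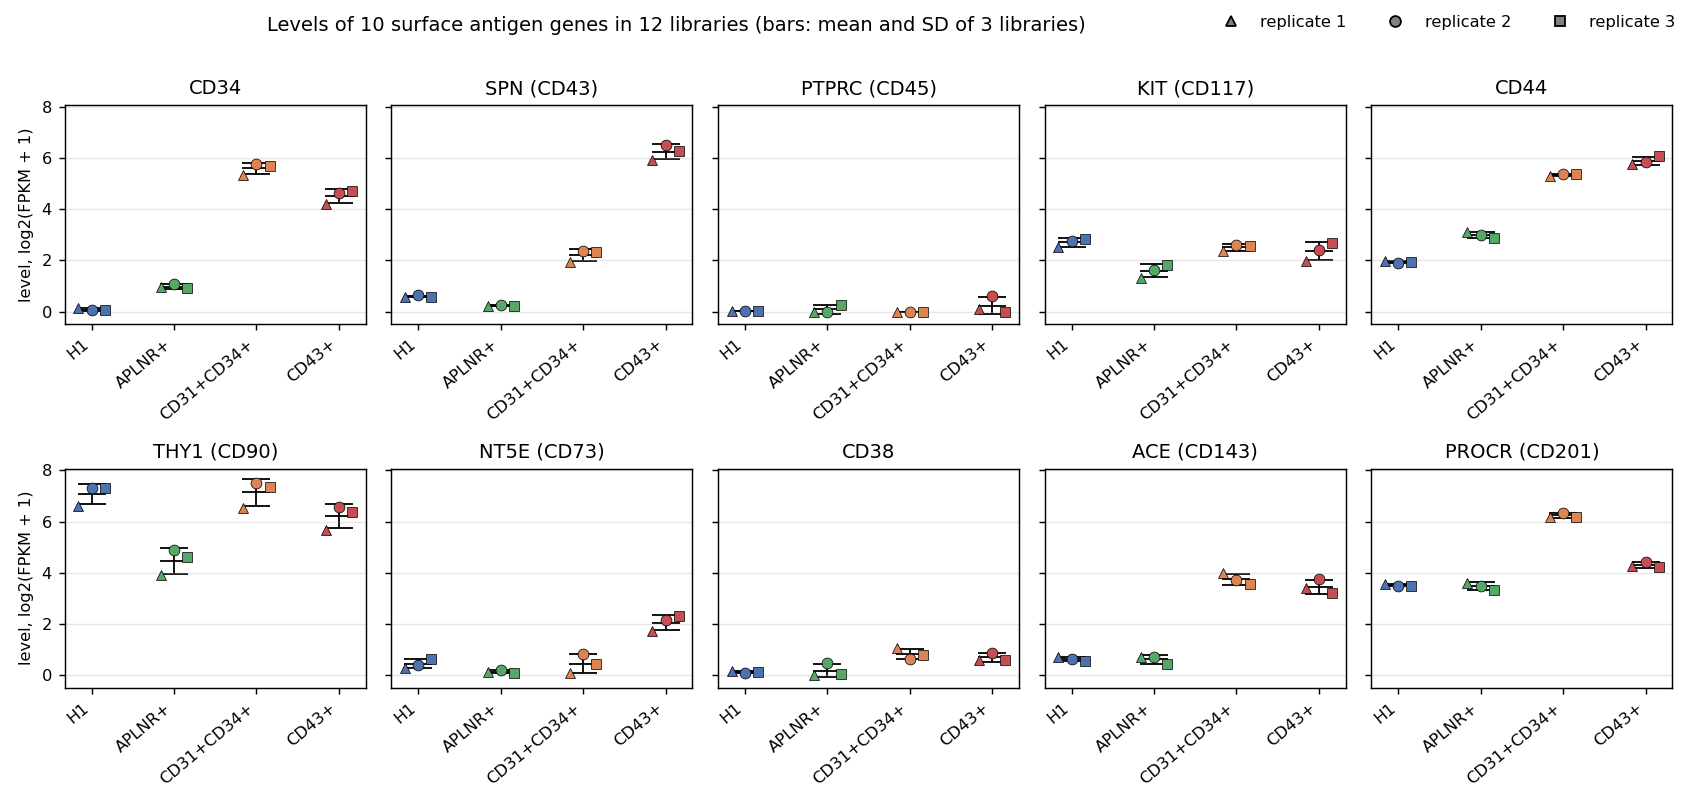
Level of each antigen gene as log2(FPKM + 1), with 1 point per library, the 3 replicates in different symbols, and bars for the mean and SD of the 3 libraries of each population. CD34 and PROCR were highest in CD31+CD34+ cells, SPN and NT5E in CD43+ cells, CD44 was higher at each later population, THY1 was lowest in APLNR+ cells, and PTPRC reached at most 0.521 FPKM in the 12 libraries.

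The sialomucins came first, since the cells were sorted on both proteins and their transcripts check the gates. CD34 was listed at 0.0966, 0.0533 and 0.0366 FPKM in H1, at 0.942, 1.12 and 0.880 FPKM in APLNR+ cells, at 39.8, 53.4 and 49.99 FPKM in HEPs and at 17.4, 24.1 and 25.1 FPKM in HPCs. The populations did not overlap, and their order was HEPs, HPCs, APLNR+ cells and H1. CD34 rose 48.7-fold in FPKM from APLNR+ cells to HEPs (log2 change 4.61 ± 0.14 SE, limma adjusted p 1.2e-10) and was lowered from HEPs to HPCs, from 47.7 ± 7.08 to 22.2 ± 4.21 FPKM (SD, n = 3 libraries), a log2 change of -1.08 (adjusted p 5.29e-05). This fall lay near the 2-fold limit, at -0.92 without CD43+ replicate 1 and at -0.99 without CD31+CD34+ replicate 2. In a bulk sample, fewer cells with a transcript and less of it per cell cannot be told apart. Between H1 and APLNR+ cells CD34 differed 15.8-fold in FPKM at levels of about 1 FPKM or less, a log2 change of 0.90 (adjusted p 0.000204) that stayed under the limit and was 2.75 with a pseudocount of 0.1.

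SPN stood at 0.499, 0.557 and 0.492 FPKM in H1 and at 0.165, 0.217 and 0.171 FPKM in APLNR+ cells. In HEPs it was listed at 2.84, 4.198 and 4.06 FPKM, and in HPCs at 60.3, 90.65 and 75.7 FPKM. Its transcript was therefore present in the bulk HEP libraries sorted for CD31 and CD34, 3 days before the CD43+ sort. Whether the endothelial cells or a few blood cells among them carried it was not tested. The rise from APLNR+ cells to HEPs was 20.1-fold in FPKM (log2 change 1.98 ± 0.15, adjusted p 1.93e-07) and that from HEPs to HPCs 20.4-fold (log2 change 4.02 ± 0.15, adjusted p 1.01e-09). The lower level in APLNR+ cells than in H1 did not pass the test (log2 change -0.36, adjusted p 0.0576), although the libraries did not overlap. Relative to CD34, SPN amounted to between 0.0713 and 0.0813 of the CD34 level in the HEP libraries and to between 3.02 and 3.76 times that level in the HPC libraries.

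PTPRC, the pan-leukocyte phosphatase, was not seen to follow SPN. It was listed at 0.0167, 0.0158 and 0.0224 FPKM in H1, at 0, 0 and 0.216 FPKM in APLNR+ cells, at 0 in the 3 HEP libraries, and at 0.0695, 0.521 and 0 FPKM in HPCs. The highest value thus belonged to CD43+ replicate 2, with CD43+ replicate 3 at 0, and the populations overlapped except that the 3 H1 libraries lay above the 3 HEP libraries. PTPRC did not enter the test. Without a filter on low values its change from HEPs to HPCs was 0.23 on the log2 scale (limma adjusted p 0.29 over all genes with a value). Whether a 0 here is a failed estimate was not tested. The study obtained CD45+ cells by replating the cells of the last days in a further culture with cytokines, which was not among the samples. PTPRCAP, a small partner of CD45, had 0.753 ± 0.0628 FPKM in HEPs and 1.82 ± 0.136 FPKM in HPCs. It is named as a partner of CD45, with its values known.

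A wider list of 30 blood cell surface genes shows what HPCs carried beside SPN. Of these, 24 were tested and 20 rose from HEPs to HPCs, where 5.58% of all tested genes were raised, with a median log2 change of 2.20 against -0.01 for all genes. Of the 24, 12 reached 1 FPKM in HPC libraries alone and so had to differ, and the count is a description. By size of change these included ITGB3 (from 0.674 ± 0.094 to 96.1 ± 10.99 FPKM) and ITGA2B (from 9.39 ± 2.51 to 575 ± 8.75 FPKM), the chains of the platelet fibrinogen receptor, and CD82, a tetraspanin (from 4.42 ± 1.495 to 55.9 ± 5.996 FPKM). ITGB3, ITGA2B and CD82 stood above CD34 in HPCs, and CD33, a myeloid lectin, rose from 0.788 ± 0.339 to 9.50 ± 2.26 FPKM. At the same step 8 of 9 erythroid markers and 7 of 8 megakaryocyte markers rose, although 4 of each list reached 1 FPKM in HPC libraries alone and entered the test through them. The erythroid list summed to between 683.4 and 819.2 FPKM in HPCs against at most 33.1 FPKM in HEPs, and HBE1 alone had 525.5 ± 40.85 FPKM in HPCs. The megakaryocyte list summed to between 738.3 and 800.0 FPKM in HPCs, most of it ITGA2B, and to at most 20.2 FPKM in HEPs. The 10 myeloid markers summed to between 38.2 and 43.4 FPKM and the 8 lymphoid markers to between 6.81 and 7.46 FPKM in HPCs, where ELANE and MS4A1 were listed at 0 in the 3 libraries. The part of these cell types in the level of SPN was not tested.

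KIT and CD44 are receptors for ligands outside the cell, KIT for stem cell factor and CD44 for the matrix sugar hyaluronan. KIT was already present in H1, at 4.755, 5.78 and 6.23 FPKM, and stood at 1.503, 2.13 and 2.54 FPKM in APLNR+ cells, at 4.10, 5.11 and 4.91 FPKM in HEPs and at 2.97, 4.38 and 5.34 FPKM in HPCs. APLNR+ cells were the low point, below every library of the other populations, and H1, HEPs and HPCs overlapped. KIT fell from H1 to APLNR+ cells (log2 change -1.12 ± 0.18 SE, limma adjusted p 2e-04), a call that was lost, at -0.98, without APLNR+ replicate 1. From APLNR+ cells to HEPs it differed by 0.91 on the log2 scale (adjusted p 0.000576), under the 2-fold limit, and by 1.02 without APLNR+ replicate 3. H1 and HEPs differed by -0.20 (adjusted p 0.309) and HEPs and HPCs by -0.15 (adjusted p 0.508). KITLG, which encodes stem cell factor and is named as the partner of KIT with its values known, had 1.82 ± 0.107 FPKM in H1, 2.99 ± 0.163 in APLNR+ cells, 2.38 ± 0.512 in HEPs and 1.04 ± 0.143 in HPCs.

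CD44 was higher in every later population, and neighbouring populations did not overlap. It was listed at 2.91, 2.73 and 2.88 FPKM in H1, at 7.575, 6.98 and 6.28 FPKM in APLNR+ cells, at 38.5, 40.3 and 40.3 FPKM in HEPs and at 53.6, 56.0 and 66.1 FPKM in HPCs. The rise to APLNR+ cells was 2.45-fold in FPKM (log2 change 1.05 ± 0.10, adjusted p 1.83e-06) and fell under the limit, at 0.99, without APLNR+ replicate 1. The rise to HEPs was larger, 5.72-fold (log2 change 2.36 ± 0.10, adjusted p 1.14e-09). From HEPs to HPCs the difference of 0.54 (adjusted p 0.00048) was under 2-fold. From H1 to HPCs CD44 rose 20.6-fold (log2 change 3.95 ± 0.10, adjusted p 6.86e-12).

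Several partners of CD44 and SPN peaked in earlier populations than these antigens. HAS2, a hyaluronan synthase, rose from 1.23 ± 0.0777 FPKM in H1 to 142.7 ± 18.7 FPKM in APLNR+ cells and fell to 12.2 ± 1.92 FPKM in HEPs and 1.75 ± 0.26 FPKM in HPCs, so it was highest where CD44 was still under 8 FPKM. HAS3, another synthase, fell from 9.01 ± 2.26 to 0.821 ± 0.238 FPKM from H1 to APLNR+ cells. GCNT1, which branches the O-linked sugar chains that CD43 carries, was highest in APLNR+ cells (21.6 ± 3.00 FPKM) and fell from HEPs to HPCs, from 5.53 ± 0.169 to 0.903 ± 0.519 FPKM, at the step where SPN rose. RDX, which ties such proteins to actin, was lowered between APLNR+ cells (65.2 ± 13.8 FPKM) and HEPs (9.52 ± 2.33 FPKM), while MSN, a linker of the same family, was raised from 92.1 ± 14.0 to 268.6 ± 50.6 FPKM. In the whole list of 28 partners, ligands and splicing factors of the antigens, 25 were tested. From H1 to APLNR+ cells 6 were raised and 4 lowered (8.3% and 7.62% of all genes), from APLNR+ cells to HEPs 8 and 8 (12.5% and 17.1%), and from HEPs to HPCs 1 was raised and 6 were lowered (5.58% and 8.79%). The gene raised at the last step was SELP, a selectin of platelets and endothelium (from 1.88 ± 0.542 to 17.0 ± 5.01 FPKM), and SELE, an endothelial selectin, fell from 12.6 ± 1.88 to 1.09 ± 0.35 FPKM.

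THY1 encodes a small adhesion protein held in the membrane by a lipid anchor. It was the most abundant of the 10 transcripts in every library of H1, APLNR+ cells and HEPs. It was listed at 97.3, 158.6 and 155.5 FPKM in H1, at 13.9, 28.75 and 23.4 FPKM in APLNR+ cells, at 90.9, 182.4 and 162.9 FPKM in HEPs and at 49.9, 92.99 and 82.2 FPKM in HPCs. H1 and HEPs overlapped and stood highest, HPCs lay below H1 but overlapped HEPs, and APLNR+ cells lay below the other 9 libraries. THY1 fell from H1 to APLNR+ cells by 2.61 on the log2 scale (SE 0.33, limma adjusted p 3.09e-05), 6.23-fold in FPKM, and rose by 2.67 (SE 0.33, adjusted p 1.45e-05) from APLNR+ cells to HEPs. The difference between H1 and HEPs did not pass the test (log2 change 0.06, adjusted p 0.885). From HEPs to HPCs the change was -0.93 (adjusted p 0.0321), under the limit, and it passed it without CD31+CD34+ replicate 1 (-1.24), CD43+ replicate 2 (-1.11) or CD43+ replicate 3 (-1.02). Against H1, HPCs differed by -0.88 (adjusted p 0.0302), and by -1.10 without H1 replicate 1 and -1.05 without CD43+ replicate 2.

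Replicate 1 was the lowest THY1 library of each population. Its value was 0.62, 0.533, 0.526 and 0.57 times the mean of replicates 2 and 3 in H1, APLNR+ cells, HEPs and HPCs, below the lower quartile of all genes at 1 FPKM in each population, where the medians were 0.977, 0.933, 0.905 and 0.894. THY1 and KIT were the tested antigens for which replicate 1 was the lowest library in all 4 populations, 2 of 8, as it was for 18.7% of the genes tested. CD44 and PROCR lay between 0.878 and 1.17 times in the 4 populations. Replicate 1 was also the shallowest library of each population. The 0 values of EEF1A1 fell in replicates 2 and 3 of H1, APLNR+ cells and HPCs, and each replicate 1 library had a value for it. The part of depth or of a batch in these ratios was not tested. In replicates 2 and 3 alone THY1 changed by -2.55, 2.69 and -0.97 at the consecutive steps, and no call of an antigen differed from that in all 12 libraries. Replicate 1 leaves 1 library per population and gives no test.

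**Figure D2:**
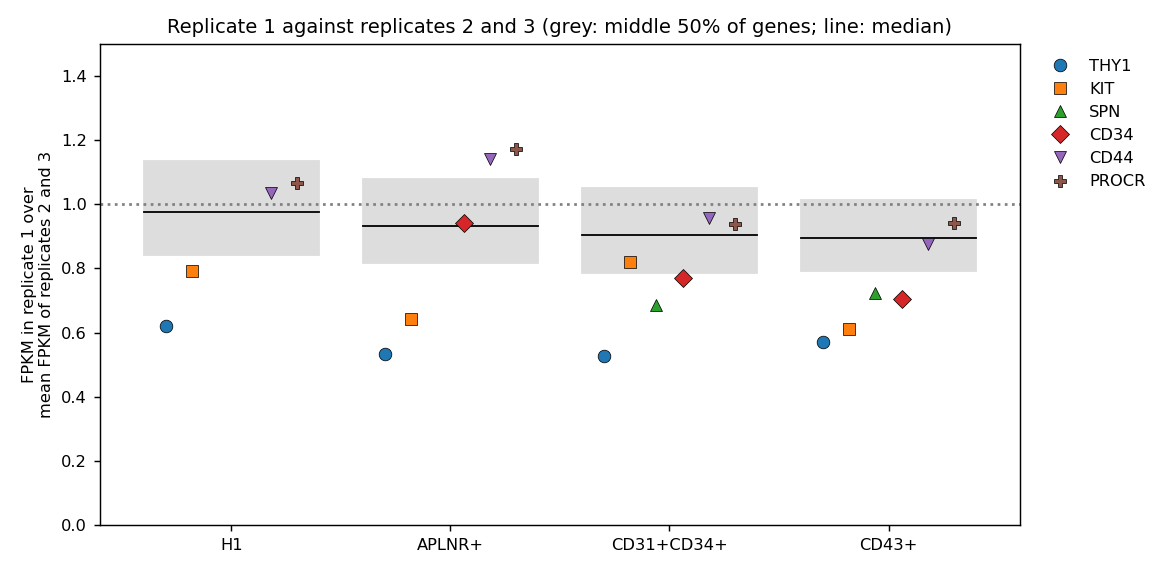
FPKM in replicate 1 divided by the mean FPKM of replicates 2 and 3, for 6 antigens in each population where that mean was at least 1 FPKM. Grey boxes span the middle 50% of genes and black lines mark their median, from 0.894 to 0.977. THY1 lay between 0.526 and 0.62 in the 4 populations, and CD44 and PROCR lay near the other genes.

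The outward-facing enzymes behaved differently from each other. ACE, the angiotensin-converting enzyme, was listed at 0.631, 0.561 and 0.467 FPKM in H1, at 0.644, 0.661 and 0.342 FPKM in APLNR+ cells, at 14.9, 12.02 and 10.76 FPKM in HEPs and at 9.60, 12.55 and 8.24 FPKM in HPCs. It was low in H1 and APLNR+ cells, which overlapped (log2 change -0.01, limma adjusted p 0.967), and high in HEPs and HPCs, which overlapped as well (log2 change -0.29, adjusted p 0.133). The rise from APLNR+ cells to HEPs was 22.9-fold in FPKM (log2 change 3.13 ± 0.16 SE, adjusted p 5.82e-09). NT5E, which makes adenosine from AMP, was listed at 0.234, 0.331 and 0.5725 FPKM in H1, at 0.0915, 0.157 and 0.0722 FPKM in APLNR+ cells, at 0.0547, 0.766 and 0.356 FPKM in HEPs and at 2.29, 3.48 and 3.92 FPKM in HPCs. Only the HPC libraries passed 1 FPKM, and they lay above the 9 others. The rise from HEPs to HPCs was 8.23-fold in FPKM (log2 change 1.61 ± 0.19, adjusted p 1.57e-05). CD38, which consumes NAD, stayed low: it was listed at 0.136, 0.0777 and 0.0856 FPKM in H1, at 0.0228, 0.404 and 0.0336 FPKM in APLNR+ cells, at 1.09, 0.573 and 0.716 FPKM in HEPs and at 0.529, 0.848 and 0.511 FPKM in HPCs. Its HEP and HPC libraries overlapped each other and lay above the 6 earlier ones, and without a filter the change from APLNR+ cells to HEPs was 0.64 on the log2 scale (adjusted p 0.00506), under 2-fold.

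Of 22 other enzymes and receptors of the adenosine, NAD and angiotensin routes, 13 were tested. From H1 to APLNR+ cells 4 were raised and 1 was lowered, where 8.3% and 7.62% of all genes were, from APLNR+ cells to HEPs 4 and 5, where 12.5% and 17.1% were, and from HEPs to HPCs 5 were lowered, where 8.79% were. ENTPD1 (CD39), which supplies the AMP that CD73 uses, rose to 12.45 ± 1.30 FPKM in HEPs, against 1.37 ± 0.185 in APLNR+ cells, and fell to 5.55 ± 0.84 FPKM in HPCs, where NT5E rose. Of the adenosine receptors, ADORA2B rose from 0.783 ± 0.031 to 13.6 ± 0.338 FPKM from APLNR+ cells to HEPs, and ADORA2A fell from 19.1 ± 0.712 FPKM in HEPs to 6.63 ± 1.02 FPKM in HPCs. The aminopeptidases ENPEP and ANPEP rose from H1 to APLNR+ cells, to 6.63 ± 0.447 and 6.04 ± 0.297 FPKM, a step at which ACE did not pass the test. ENPEP reached 1 FPKM in APLNR+ libraries alone, entered the test through them and so had to differ.

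PROCR, the endothelial protein C receptor, was highest in HEPs, as CD34 was. It was listed at 10.9, 10.3 and 10.2 FPKM in H1, at 11.3, 10.3 and 8.95 FPKM in APLNR+ cells, at 71.65, 80.2 and 72.3 FPKM in HEPs and at 18.1, 20.7 and 17.8 FPKM in HPCs. H1 and APLNR+ cells overlapped (log2 change -0.04, limma adjusted p 0.748), all HEP libraries lay above the other 9, and HPCs lay between. PROCR rose 7.35-fold in FPKM from APLNR+ cells to HEPs (log2 change 2.76 ± 0.10 SE, adjusted p 3.48e-10) and fell 3.96-fold from HEPs to HPCs (log2 change -1.93 ± 0.10, adjusted p 1.31e-08). HPCs differed from H1 by 0.79 (adjusted p 1.12e-05), under the limit. THBD, its partner on endothelium, had 0.25 ± 0.03245, 3.25 ± 0.367 and 1.61 ± 0.206 FPKM in APLNR+ cells, HEPs and HPCs, and F2R, a thrombin receptor, had 4.28 ± 0.468 FPKM in APLNR+ cells and was raised to 32.3 ± 3.15 FPKM in HEPs, with 56.9 ± 2.02 FPKM in HPCs, above HEPs where PROCR was below. Of 16 endothelial surface genes, 15 rose from APLNR+ cells to HEPs, where 12.5% of all genes were raised, with CDH5, ICAM2, TIE1 and PECAM1 at the top (PECAM1, which encodes the sort marker CD31, from 0.0997 ± 0.0853 to 55.2 ± 4.10 FPKM). From HEPs to HPCs 6 of them fell, among them MCAM (from 130.5 ± 7.35 to 22.99 ± 2.21 FPKM), ENG (from 11.9 ± 1.11 to 2.39 ± 0.169 FPKM) and CDH5 (from 96.8 ± 15.6 to 33.9 ± 6.41 FPKM), and 2 rose, DLL4 (from 9.36 ± 0.704 to 26.3 ± 1.84 FPKM) and EMCN, where 8.79% of all genes were lowered and 5.58% raised. The part of endothelial cells in the levels of CD34, ACE and PROCR there was not tested. Among the 16, PECAM1, CDH5, ENG, ESAM, ICAM2, CD93, DLL4, VWF, ROBO4 and CLEC14A reached 1 FPKM in HEP and HPC libraries alone. EMCN did so in HPC libraries alone. Such genes entered the test through the populations where they were high and so had to differ, and the counts are a description.

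The sequence before the start of ACE and PROCR is shown because both rose at the step to HEPs, and that of PTPRC because its transcript stayed near 0. Sequences are from RefSeq (GRCh38.p14), matched by symbol for 8 of the 10 genes, SPN and THY1 being without an entry in the table used, and the start farthest upstream was taken. Each reads from 5′ to 3′ on the strand of the gene and ends at the base before the start, except that of PTPRC, which ends before the first exon of the GENCODE annotation and leaves out the last of its 3 matches. Capitals mark matches on either strand to ETS-type letters, which were AGGAAG with its variant CGGAAG, and AGGAAA with its variant CGGAAA. ACE lies at chr17:63476811-63477060 (+ strand), PROCR at chr20:35171822-35172071 (+ strand) and PTPRC at chr1:198638790-198638967 (+ strand).
ACE: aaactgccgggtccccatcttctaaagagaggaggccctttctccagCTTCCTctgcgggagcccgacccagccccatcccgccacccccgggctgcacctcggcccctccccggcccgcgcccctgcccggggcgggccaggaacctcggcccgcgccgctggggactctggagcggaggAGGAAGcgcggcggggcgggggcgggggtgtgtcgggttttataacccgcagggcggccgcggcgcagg
PROCR: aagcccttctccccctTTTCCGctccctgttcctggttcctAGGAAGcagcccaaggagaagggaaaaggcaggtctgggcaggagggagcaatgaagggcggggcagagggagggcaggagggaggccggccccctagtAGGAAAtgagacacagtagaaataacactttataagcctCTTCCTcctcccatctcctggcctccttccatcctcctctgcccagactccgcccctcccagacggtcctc
PTPRC: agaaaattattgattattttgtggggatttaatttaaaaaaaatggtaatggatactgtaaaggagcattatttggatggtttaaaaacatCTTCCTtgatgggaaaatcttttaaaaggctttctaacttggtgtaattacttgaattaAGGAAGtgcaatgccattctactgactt

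Base composition set these stretches apart. Over the 250 bases before the start, G and C made up 31.2% in PTPRC, with 1 CpG, against 75.2% in ACE, with 27 CpGs, and 60.0% in PROCR, with 5 CpGs. The median over 27305 genes was 57.6%, with 10 CpGs. KIT had the highest share of the 8 antigens (76.4%, 34 CpGs). ETS-type letters were found before 6 of the 8 antigens (CD34, PTPRC, CD44, NT5E, ACE and PROCR), and before 58.6% of all genes. The windows of CD34, CD44 and NT5E begin within an exon of the GENCODE annotation. Those of PTPRC, KIT and CD38 reach one after 178, 211 and 200 bases. Matches and base composition of these windows thus include annotated exon sequence. GATA-type letters (AGATAA with its variant TGATAA, and AGATAG with its variant TGATAG) were found before 23% of all genes and RUNX-type letters (TGTGGT with its variant TGCGGT) before 16.3%, and these letters are in the 250-base window of none of the 8 antigens. No match overlapped one of another set. A match is a description of the sequence and not a binding site.

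The 3 consecutive steps held 3, 6 and 4 calls of the 8 tested antigens. From H1 to APLNR+ cells CD44 was raised, 1 of 8 tested, where 8.3% of all genes were raised, and KIT and THY1 were lowered, where 7.62% of all genes were. Of the 8, 2 lay wholly above H1 in the APLNR+ libraries and 4 wholly below, as did 26.1% and 40% of all genes. From APLNR+ cells to HEPs 6 of 8 were raised (CD34, SPN, CD44, THY1, ACE and PROCR), where 12.5% of all genes were raised and 17.1% lowered. In the HEP libraries 7 of the 8 lay wholly above APLNR+ cells, as did 36.9% of all genes, while 38.9% of all genes lay wholly below. The median log2 change of the 8 was 2.51 there and -0.01 over all genes. From HEPs to HPCs SPN and NT5E were raised, where 5.58% of all genes were, and CD34 and PROCR were lowered, where 8.79% of all genes were. At this step 3 of the 8 lay wholly above and 2 wholly below, as did 28% and 30% of all genes. Between the ends of the series CD34, SPN, CD44, NT5E and ACE were raised in HPCs over H1, where 14.6% of all genes were raised and 22.5% lowered. HEPs differed from H1 in CD34, SPN, CD44, ACE and PROCR, which were raised as 16.9% of all genes were (23.2% were lowered), and HPCs differed from APLNR+ cells in CD34, SPN, CD44, THY1, NT5E and ACE, raised as 14.1% of all genes were (19.4% were lowered). These comparisons share libraries and are not independent. CD34 and SPN encode proteins on which cells were sorted. SPN and ACE reached 1 FPKM only in HEP and HPC libraries, and NT5E only in HPC libraries. Rises of these genes there were thus set by the sort or the filter, and the counts are a description. With 3 libraries on each side, the smallest p of an exact two-sided permutation test is 0.1.

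**Figure D3:**
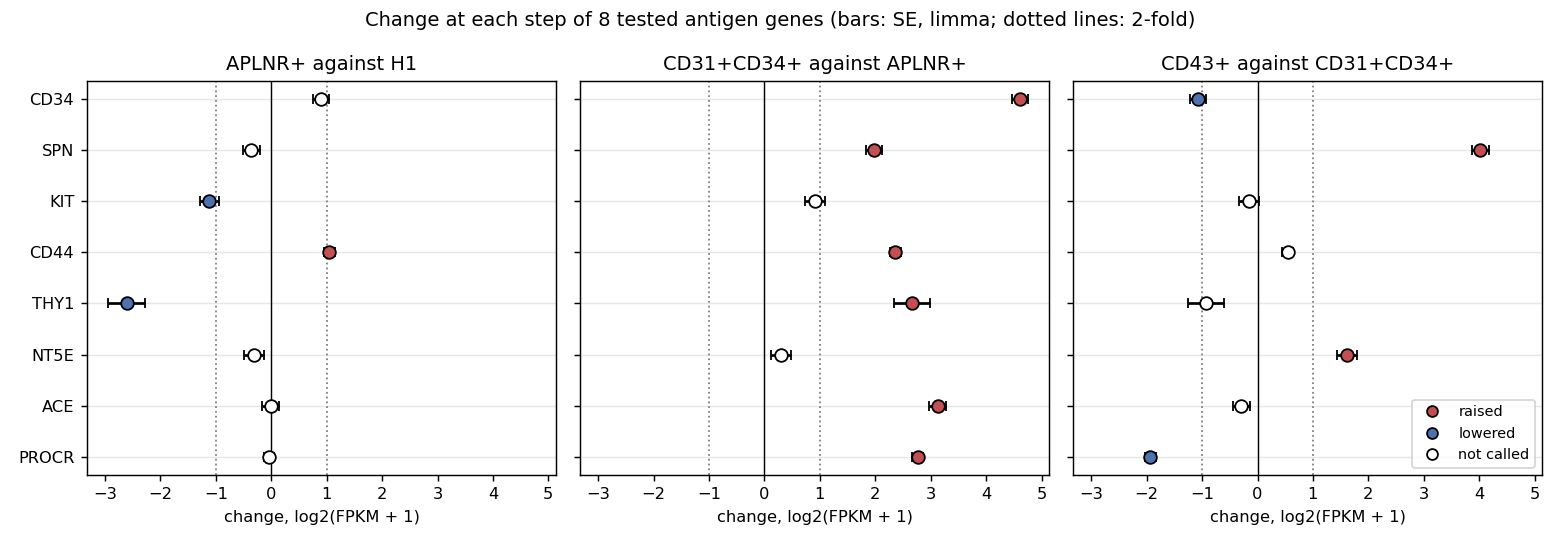
Change of each tested antigen at the 3 consecutive steps, in log2(FPKM + 1), with the SE from limma. Red points were raised and blue points lowered, open points were not called, and dotted lines mark 2-fold. The widest set of rises lies in the middle panel, with CD34 at 4.61, and the last panel holds SPN at 4.02 beside PROCR at -1.93.

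The make-up of the antigen transcripts changed with the population. THY1 held between 82.8% and 88.6% of the summed FPKM of the 10 genes in H1 and between 38.5% and 56.7% in APLNR+ cells. In HEPs it held between 34.4% and 48.1%, beside PROCR at between 20.9% and 27.15% and CD34 at between 14.1% and 15.1%. In HPCs no gene held more than 30.4%, and CD34 held between 7.87% and 8.8%. The summed FPKM was lowest in APLNR+ cells, between 36.1 and 50.7, and ran from 263.8 to 379.1 in HEPs and from 214.7 to 306.2 in HPCs, which overlapped.

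**Figure D4:**
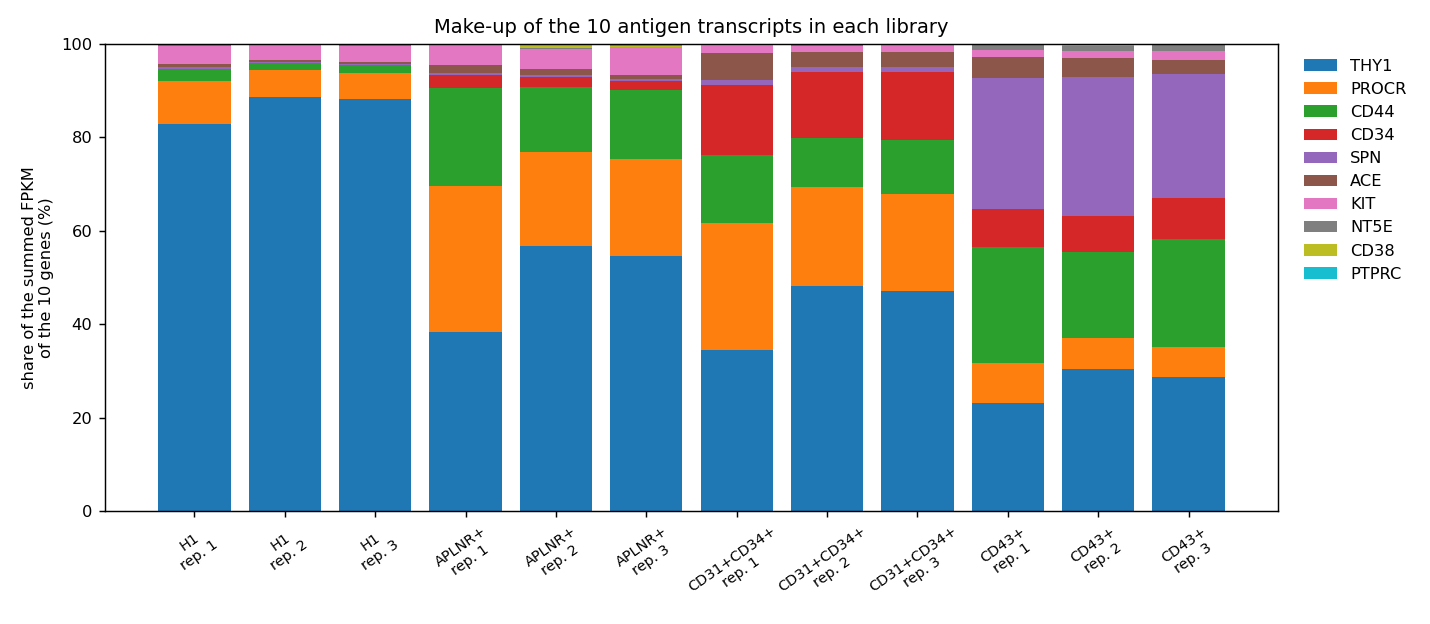
Share of each gene in the summed FPKM of the 10 antigen genes, in percent, with 1 bar per library. THY1 fills at least 82.8% of each H1 bar, and SPN appears as a large part only in the CD43+ bars.

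Genes whose course was most like that of each antigen were looked up among 7718 tested genes with a mean of at least 10 FPKM in a population, by Pearson's r over the 12 libraries, given as a description since the libraries fall into 4 populations. SPN was most like P2RX1, a platelet ATP receptor channel (r = 0.997), and GATA1, the erythroid and megakaryocyte factor (r = 0.997). PROCR was most like ECM1 (r = 0.995), MCHR1 (r = 0.995) and SELE (r = 0.995), ACE was close to CAVIN1 (r = 0.995), and CD34 was most like TRIM8, HSD17B14 and PTTG1IP (r from 0.996 to 0.997). CD44 was most like GAD1 (r = 0.996), which stood at 0.25 FPKM in H1 and 272.2 FPKM in HPCs, and ZFPM2 (r = 0.996). NT5E was most like INPP5B (r = 0.985), with ITGA2B at rank 3 (r = 0.973). KIT was most like GPN1 (r = 0.966), with THY1 at rank 3 (r = 0.951). THY1 was close to NOL6 (r = 0.95).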

How the data were processed

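RNA-seq of 12 libraries was used, 3 for each of 4 populations, with groups and replicate numbers from the sample titles. The authors deposited 1 table of FPKM values by gene symbol, with a column per library. The submitters' processing notes name BWA, Bowtie, RSEM and build hg19, without roles; the annotation, and whether libraries were scaled to each other, are not given in the sources used here. The table held 58365 lines of values and 1 line of text, which was left out. Where a symbol had several lines (345 symbols), only that of highest mean was used, and the 10 antigens stood on 1 line each. FPKM are not counts, so no count model was run, and absolute depth is unknown; relative depth came from values between 0.0001 and 0.2 FPKM, by their most common ratio to those of CD43+ replicate 3.

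Values were transformed as log2(FPKM + 1) and fitted with limma 3.58.1 in R 4.3.3 (lmFit, contrasts.fit, eBayes with trend) to the 4 populations in 1 model without covariates, for 6 comparisons, with Benjamini-Hochberg adjustment over 14840 genes. In simulated data with 200 of these genes changed in APLNR+ cells against H1, 198 were called, with 3 unchanged genes. The changed genes were drawn from those with higher levels and shifted by more than the limit, with independent noise. Low genes, changes near the limit and deviations shared between libraries were not covered. The 10 antigens and the lists were chosen with earlier results of these data known. Named list genes were up to 4 per list and consecutive step, those with the largest change among called genes without overlap and with the higher mean at 5 FPKM or more. EMCN, KITLG, LIN28A, MSN, PTPRCAP and THBD were named after their values were seen. Some genes that this rule or the search for like genes named are not reported here. Python 3.11.15 with pandas 2.3.3, numpy 2.4.6 and matplotlib 3.10.9 was used for tables and figures. Alternatives were a pseudocount of 0.1, other filters, upper-quartile and quantile scaling, summed lines, a replicate block, no trend, fits to the compared populations alone, other minimum changes and leaving out each library; 2 more, replicates 2 and 3 alone and a term for replicate 1, were added after the data were seen.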

Additional observations from a re-analysis of the deposited data

How the results depend on the processing

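No change of an antigen reversed its direction where it was called, under any of the alternatives run. Of the results for single antigens under alternatives, 1155 kept their call, 15 lost it and 18 gained it, most of them through another minimum change. Besides the values given with each gene, SPN passed the limit from H1 to APLNR+ cells with a pseudocount of 0.1 (-1.12), KIT passed it from APLNR+ cells to HEPs with that pseudocount (1.18) and with quantile normalization (1.07), and the fall of CD34 to HPCs was -0.997 with quantile normalization, just under the limit. The antigens called from H1 to APLNR+ cells numbered 3, against 5 with a pseudocount of 0.1 and 1 with a 4-fold minimum, and leaving out a library gave from 1 to 3, with 1 without APLNR+ replicate 1; from HEPs to HPCs they numbered 4, against 1 with a 4-fold minimum. Over all genes, calls numbered 2363, 4400, 2133, 5955, 4982 and 5501 for APLNR+ against H1, CD31+CD34+ against APLNR+, CD43+ against CD31+CD34+, CD31+CD34+ against H1, CD43+ against APLNR+ and CD43+ against H1. In the same order they numbered 8594, 10948, 7961, 11473, 10995 and 11076 without a minimum change, and 569, 875, 454, 1771, 1303 and 1664 with a 4-fold minimum. A pseudocount of 0.1 gave 3632 for the first and 3605 for the third. A mean of at least 5 FPKM, which left 8622 genes to test, gave 1193, 1313, 3752, 3080 and 3309 for all but the second. KIT and NT5E did not reach that mean and have no value under it. The replicate 1 libraries of the 4 populations shared part of their deviations, with correlations from 0.196 to 0.429. For replicates 2 and 3 the number did not pair the libraries throughout (lowest -0.0214). With the replicate number as a block, 2369, 4410, 2140, 5960, 4995 and 5506 genes were called, and no call of an antigen changed. The median change of all genes from H1 to HPCs moved from -0.10 to 0.02 with quantile normalization. Low values, those of PTPRC and CD38 above all, are limited by depth, which FPKM do not give.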

Other observations

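Surface genes of pluripotent cells were followed beside the antigens. Of 9 such genes, 7 were lowered from H1 to APLNR+ cells, where 7.62% of all genes were, and 8 from H1 to HPCs, where 22.5% were. CD24 fell from 609.2 ± 5.32 to 71.6 ± 1.58 FPKM and EPCAM from 45.5 ± 0.413 to 15.1 ± 1.56 FPKM at the first step, the step at which THY1 fell. CD24 then stood at 86.6 FPKM in HEPs and 126.2 FPKM in HPCs, and EPCAM at 7.85 and 2.205 FPKM. PODXL, a sialomucin of the CD34 family, fell from 83.0 ± 4.39 FPKM in HEPs to 5.74 ± 1.008 FPKM in HPCs, where CD34 fell as well. Mesenchymal stromal markers, 12 genes, summed to 98.8 to 134.1 FPKM in H1, 552.9 to 708.2 in APLNR+ cells, and stood at 612.5 to 715.7 in HEPs and at 179.1 to 212.3 in HPCs. A few genes weigh most in these sums, such as TAGLN with 465.6 FPKM in APLNR+ cells and 274.4 FPKM in HEPs. From HEPs to HPCs 4 of 10 tested were lowered and 1, ACTA2, was raised, as were 8.79% and 5.58% of all genes. THY1 and NT5E, named above as antigens of such cells, had their lowest means in APLNR+ cells, where NT5E overlapped HEPs. For NT5E the difference from H1 was not called (log2 change -0.31, limma adjusted p 0.174). CD44 went the other way, from 2.84 FPKM in H1 to 6.95 FPKM in APLNR+ cells.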
